A study of Mus musculus with 2 samples.

Results

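The distal ends of the mouse autosomes, the last 5 Mb of chromosomes 1 to 19, held more early-scoring DNA than the rest of those chromosomes. Their members were all positions of the deposited timing table that lay within 5 Mb of the highest position listed for the same chromosome. There were 14887 such positions among 384798 in the whole table, and 14883 of them had a score. The choice rested on position alone and used no measured value. The cells were the mouse embryonic stem cell line 46C (strain 129P2/Ola), known for a green fluorescent reporter at the Sox1 locus, and they had been kept with leukemia inhibitory factor. They took up bromodeoxyuridine (BrdU), which stands in for thymidine in new DNA, at 50 µM for 2 h and were sorted by DNA content into early S phase and late S phase. The 2 groups were the early S fraction and the late S fraction, with 1 library each, and both carried the same label, strain and antibody pull-down of BrdU-containing DNA from 10000 cells, followed by whole-genome amplification. The authors combined both libraries in 1 score per position, smoothed over 300 kb, and positive values were taken as early because the table's name puts early first. How it was scaled, its log base and what 0 stands for are unstated, so a score is not a fold, and without replicate libraries no error between experiments and no test can be given. The score reads DNA and not RNA, so the cell type was not tested against its marker genes.

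Replication timing is the order in which parts of a chromosome are copied during S phase. Gene-rich, active chromatin is in general copied early, and gene-poor chromatin at the nuclear lamina late. Mouse autosomes carry the centromere at the end where numbering starts, so the distal end is the telomere end of their only long arm. Telomeres are repeat DNA that short reads do not place, and the highest listed position is therefore the last place in the table and not the physical end of the chromosome. Coordinates are those of mm10.

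The promoters of 6 genes from windows with high and with low median scores are given, to show the sequences at which the highest and the lowest scores stood. The first 3 are from the windows with the highest medians, on chromosomes 15, 11 and 2, and belong to the highest-scoring gene of each window. The other 3 are from chromosomes 3, 13 and 17, whose medians were among the 4 lowest, and belong to the lowest-scoring gene of each window that has an entry in the promoter table. All are RefSeq sequences of GRCm38.p6, from 250 bases before to 50 bases after a start in the promoter table, and capitals mark each CG dinucleotide.
Eif4b promoter, chr15:102073523-102073822, strand +: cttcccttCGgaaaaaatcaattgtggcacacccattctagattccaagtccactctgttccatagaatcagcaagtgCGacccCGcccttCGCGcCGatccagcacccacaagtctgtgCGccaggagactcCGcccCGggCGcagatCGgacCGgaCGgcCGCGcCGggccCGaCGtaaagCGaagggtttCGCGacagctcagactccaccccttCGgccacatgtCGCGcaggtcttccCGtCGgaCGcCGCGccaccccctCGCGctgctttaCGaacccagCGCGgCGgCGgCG
Slc38a10 promoter, chr11:120151302-120151601, strand -: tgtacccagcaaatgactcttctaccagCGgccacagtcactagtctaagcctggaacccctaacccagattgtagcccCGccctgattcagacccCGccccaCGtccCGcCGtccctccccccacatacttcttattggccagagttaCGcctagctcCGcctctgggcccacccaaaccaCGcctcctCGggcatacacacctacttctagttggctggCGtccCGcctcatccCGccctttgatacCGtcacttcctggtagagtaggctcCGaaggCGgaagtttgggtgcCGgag
Lsm14b promoter, chr2:180024737-180025036, strand +: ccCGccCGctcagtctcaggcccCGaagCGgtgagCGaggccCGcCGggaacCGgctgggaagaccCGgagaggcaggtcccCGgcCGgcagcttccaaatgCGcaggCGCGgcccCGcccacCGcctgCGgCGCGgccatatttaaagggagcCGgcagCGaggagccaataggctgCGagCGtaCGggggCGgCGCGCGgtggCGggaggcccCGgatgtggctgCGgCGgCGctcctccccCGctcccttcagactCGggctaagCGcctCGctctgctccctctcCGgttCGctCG
Negr1 promoter, chr3:156561544-156561843, strand +: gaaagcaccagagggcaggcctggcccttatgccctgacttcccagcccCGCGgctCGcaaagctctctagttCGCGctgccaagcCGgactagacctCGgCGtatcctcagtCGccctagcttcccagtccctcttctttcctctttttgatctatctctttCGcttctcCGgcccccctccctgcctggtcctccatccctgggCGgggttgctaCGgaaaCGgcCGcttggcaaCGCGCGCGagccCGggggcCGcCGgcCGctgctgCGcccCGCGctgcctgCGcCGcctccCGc
Fgf10 promoter, chr13:118714449-118714748, strand +: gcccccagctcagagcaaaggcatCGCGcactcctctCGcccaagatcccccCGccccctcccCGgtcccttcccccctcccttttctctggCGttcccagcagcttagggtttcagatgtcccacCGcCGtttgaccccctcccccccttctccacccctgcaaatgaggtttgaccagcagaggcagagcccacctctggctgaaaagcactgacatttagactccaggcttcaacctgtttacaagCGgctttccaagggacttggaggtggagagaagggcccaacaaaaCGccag
Adcyap1 promoter, chr17:93198767-93199066, strand +: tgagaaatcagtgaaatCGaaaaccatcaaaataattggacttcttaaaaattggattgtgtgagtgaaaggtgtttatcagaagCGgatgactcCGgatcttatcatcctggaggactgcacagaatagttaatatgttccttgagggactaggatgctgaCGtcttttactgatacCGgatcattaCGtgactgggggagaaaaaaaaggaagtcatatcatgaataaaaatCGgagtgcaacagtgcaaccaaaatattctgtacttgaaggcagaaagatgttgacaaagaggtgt
Eif4b, which encodes a translation initiation factor, had 37 CG dinucleotides in these 300 bases, Slc38a10, an amino acid transporter gene, 17, and Lsm14b, an RNA-binding protein gene, 40. Among the late genes Negr1, a neuronal adhesion gene, had 29, Fgf10, a growth factor gene of limb and lung budding, had 10, and Adcyap1, which encodes a neuropeptide, had 7. The table's start can differ from the outer border of the annotated gene: the whole stretch for Adcyap1 lies inside the gene, and so does the start used for Lsm14b. The numbers of the early and the late genes overlapped, since Negr1 had more than Slc38a10.

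Close to the end of chromosome 4 lie 3 microRNA genes of the miR-200 family, known for keeping cells in an epithelial state, and they are given because they show what an early distal end can hold. They were chosen after their values were seen. The mature 3p sequences are from RefSeq (GRCm38.p6), with the seed (bases 2 to 8) in capitals.
mmu-miR-200b-3p, chr4:156055685-156055706, strand -: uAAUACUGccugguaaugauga
mmu-miR-429-3p, chr4:156053916-156053937, strand -: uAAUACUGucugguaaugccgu
mmu-miR-200a-3p, chr4:156054911-156054932, strand -: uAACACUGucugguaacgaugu
The seed AAUACUG is shared by miR-200b-3p and miR-429-3p, and miR-200a-3p has the seed AACACUG. All 3 hairpins had a score of 1.56, which is 1 reading of the smoothed profile and not 3, at 0.126 to 0.128 Mb from the last listed position. Of 57 microRNA hairpins in the distal windows with a score 46 lay above 0, with a median of 1.43, against 639 of 860 with a median of 1.215 elsewhere on the autosomes. The share over all autosomal hairpins was 74.7%. Late hairpins included Mir29b-2 and Mir29c on chromosome 1, both at -0.46, and Mir153 on chromosome 12 at -0.49.

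Over all distal positions 56.2% lay above 0, against 43.3% of the other autosomal positions and 43.8% of all autosomal positions. The median score was 0.25 (quartiles -0.82 and 1.25) in the distal windows and -0.33 (quartiles -1.19 and 0.89) in the rest. The distal median was 0.038 over the last 2 Mb, 0.55 with 0 moved to the median of all autosomes, 0.147 without chromosome 11 and 0.159 without chromosome 15. Distal scores spanned -1.70, at position 155027694 of chromosome 3, to 2.18, at position 102091011 of chromosome 15. In the rest of the autosomes they spanned -1.93 to 2.2. Scores within 0.5 of 0 made up 23.0% of the distal and 19.9% of the other positions. Close neighbours in the table differed by 0.0133 in the distal windows and 0.0132 elsewhere (medians). The windows held 667 to 846 scored positions each, fewest on chromosome 2, where 4 gaps of 103.7 to 314.8 kb broke the first part of the window.

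**Figure D1:**
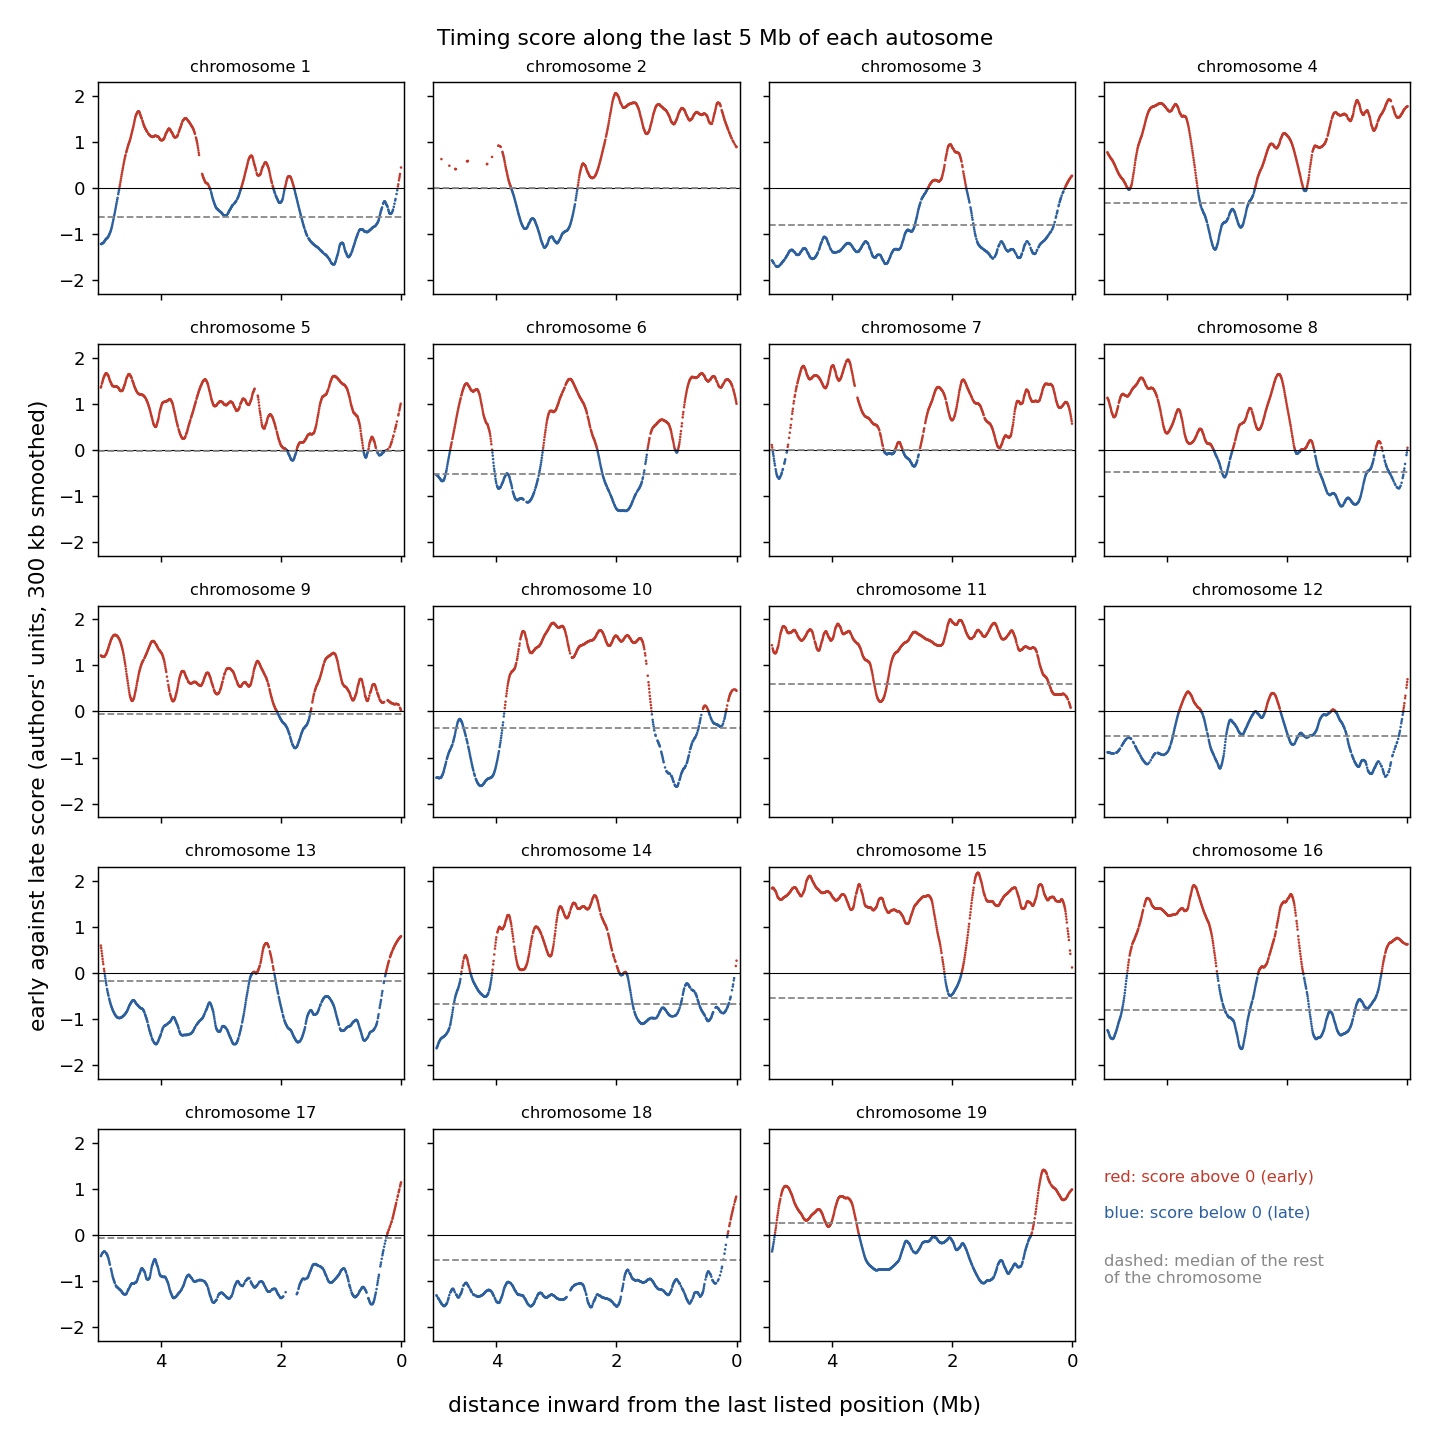
The score (authors' units, smoothed over 300 kb) is plotted against the distance inward from the last listed position, in Mb, with 1 panel per autosome. Red points lie above 0 (early), blue points below 0 (late), and the dashed line is the median of the rest of the chromosome. Chromosome 11 is early throughout, chromosomes 17 and 18 are late up to a short early stretch at the end, and most others switch between both.

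Chromosome by chromosome, the distal median was above that of the rest of the same chromosome on 14 of 19 autosomes and below it on 5. The median of the 19 differences, distal minus rest, was 0.76, from -0.96 on chromosome 17 to 2.12 on chromosome 15. A like comparison for the 452 other whole stretches of 5 Mb, laid side by side from the distal end, put 48.2% of them above the rest of their chromosome. The distal median itself was above 0 on 11 autosomes, while 38.9% of the other stretches had a median above 0. No distal window was the highest stretch of its chromosome. The window of chromosome 11 ranked 2 of 23 and that of chromosome 15 ranked 2 of 20, whereas that of chromosome 17 ranked 17 of 18 and that of chromosome 18 ranked 16 of 17. Chromosomes share both libraries and are not replicates, so these counts describe this pair of libraries. Their size depended on the window: over the last 2 Mb the median difference was 0.12 and 10 of 19 autosomes were higher than their rest. Over the last 10 Mb it was 0.54, and 13 of 19 autosomes were higher. With means in place of medians the difference was 0.47, and 13 of 19 autosomes were higher.

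There were 5 windows that were early over more than 85% of their positions, and they were on chromosomes 11, 15, 5, 9 and 7. Here and for the other windows, the highest, the lowest and the nearest gene to the end were picked with placeholder names passed over. Counts of early genes include them and stand beside a share of 74.3% over all scored autosomal protein-coding genes. On chromosome 11 (116983706 to 121957529) all 840 positions lay above 0, the median was 1.57 against 0.61 in the rest of the chromosome, and all 108 protein-coding genes were early. Its highest gene was Slc38a10 at 1.98. The lowest was Metrnl, which encodes a secreted protein, at 0.37, and the gene nearest to the end was the patched-domain gene Ptchd3 at 0.38. Gm9631, passed over for its placeholder name, was lower, at 0.26, and nearer to the end. The early run that reached the end of this chromosome was 7.64 Mb long and started inward of the window.

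On chromosome 15 (98658124 to 103654844) 94.4% of positions lay above 0, and the median of 1.59 was the highest of the 19 windows, against -0.53 in the rest of the chromosome. Of 145 protein-coding genes 134 were early. The peak of 2.18 lay inside Eif4b (102073773 to 102097173). Tuba1b, which encodes an alpha-tubulin, had 1.72, and Glycam1, the gene nearest to the end, which encodes a mucin that binds L-selectin, had 1.17. The late part was a single dip between the early runs that ended at 101527498 and began again at 101820604, and it lay in the keratin cluster. There the hair and skin keratin gene Krt6b had -0.44, the lowest of the genes named as keratins, and the placeholder-named Gm5414 had -0.49. Krt18, a keratin gene of simple epithelia at the distal side of the cluster, had 1.95. Of 26 keratin genes of this window 16 lay above 0, with a median of 0.34. The 9 HoxC genes (102921131 to 103036856), which pattern the body axis, followed at 1.47 to 1.56 and cannot be read apart at this smoothing.

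Chromosome 5 (146734596 to 151727366) had 91.8% of its distal positions above 0 and a median of 0.96, against -0.025 in the rest. All 40 protein-coding genes were early, from B3glct, a glucosyltransferase gene, at 0.14 to the ribosomal protein gene Rpl21 at 1.66. The homeobox genes Gsx1 of the brain, Pdx1 of the pancreas and Cdx2 of the gut lay close together at 1.63, 1.45 and 1.35. They lay within less than the smoothing width of 300 kb and cannot be read apart. Rfc3, a subunit gene of the clamp loader that puts the sliding clamp on DNA, was the nearest to the end and had 0.52.

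On chromosome 9 (119153371 to 124149954) 88.5% of positions lay above 0, with a median of 0.62 against -0.048 in the rest. Of its 78 distal genes 75 were early, beside 74.3% over all autosomes. Xylb, a xylulokinase gene, was the highest at 1.66, and Abhd5, a coactivator gene of fat breakdown, the lowest at -0.78. Several genes of receptors for chemokines, which guide white blood cells, lay in this window. Cx3cr1 and Ccr8, at 4.09 and 4.06 Mb from the last position, had 1.48 and 1.41. Ackr2, an atypical receptor that takes up chemokines, had 0.74 at 2.245 Mb. Nearer to the end, Ccr9 had 0.33, Cxcr6 0.23, Ccr3 0.17 and Ccr2 0.15. These 4 lay just above 0 and below the median of their window.

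Chromosome 7 (140322185 to 145321106) had 87.0% of positions above 0 and a median of 1.00, against 0.0075 in the rest. Of its 133 distal genes 111 were early, beside 74.3% over all autosomes. Ap2a2, a subunit gene of the clathrin adaptor of endocytosis, was the highest at 1.95. The odorant receptor gene Olfr532 was the lowest at -0.59, and Mrgprd, a receptor gene of pain-sensing neurons nearest to the end, had 0.57. The distal imprinted region, many of whose genes are expressed from a single parental copy, was divided. H19 had -0.18, the growth factor gene Igf2 -0.32 and the insulin gene Ins2 -0.35, and they cannot be read apart at this smoothing. The 7 genes on the Kcnq1 side (142966822 to 143549882) had a median of 1.35, among them the cell cycle inhibitor gene Cdkn1c at 1.35 and Phlda2 at 1.52. Fgf4, a growth factor gene of pluripotent cells, had 1.40, and with Fgf3, Fgf15 and the cyclin gene Ccnd1 it formed a group at 1.35 to 1.43. This group, too, cannot be read apart.

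Another 5 windows were early over less than 20% of their positions, on chromosomes 18, 17, 13, 3 and 12. Chromosome 18 (85604171 to 90595506) had 2.86% above 0 and the lowest median, -1.27, against -0.54 in the rest. A single late run of 4.85 Mb filled it up to the last stretch. Of its 8 protein-coding genes 6 were late, at -0.97 to -1.25, among them Cbln2, a synapse organizer gene, as the lowest, and the glutamate receptor partner gene Neto1 at -1.21. Tmx3, which encodes a disulfide isomerase of the endoplasmic reticulum, lay at the end and had 0.47.

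Chromosome 17 (89866533 to 94864225) had 4.55% of positions above 0 and a median of -1.03, against -0.070 in the rest. It was the poorest in genes, with 3. Adcyap1 had -1.01, and Mettl4, which encodes a methyltransferase-like protein and is nearest to the end, had 0.44. A late run of 4.76 Mb covered the window up to position 94622645.

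Chromosome 13 (114494438 to 119493279) had 13.4% of positions above 0 and a median of -0.96, against -0.18 in the rest. Of 13 genes 4 were early. Fgf10 had -1.02 and Isl1, a homeobox gene of motor neurons and heart progenitors, -0.64. Paip1, a gene of translation control near the end, was the highest at 0.72, apart from the placeholder-named 4833420G17Rik at 0.78. A small early stretch inside the late part held Emb, which encodes the membrane protein embigin, at 0.65.

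On chromosome 3 (154935495 to 159932182) 16.7% of positions lay above 0, with a median of -1.26 against -0.81 in the rest. Late runs of 2.59 and 1.63 Mb stood on each side of an early island of 0.633 Mb (157534398 to 158167154). The island held Cth, an enzyme gene of cysteine synthesis, at 0.95, the highest of the window, and the splicing factor gene Srsf11 at 0.77. Fpgt, a gene of fucose metabolism, was the lowest at -1.635. Wls, needed for Wnt secretion, spanned the last listed position and had 0.20.

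Chromosome 12 (115023737 to 120018514) had 18.04% above 0, against 39.6% in the rest, and a median of -0.47 against -0.54. By the median, though not by the share above 0, it was the window closest to its own chromosome. It began in the variable segments of the immunoglobulin heavy chain locus. All 55 segments and segment pseudogenes in the window (115024026 to 116009954) were late, at -1.14 to -0.57, with a median of -0.90. They lay in a single late run (115023737 to 116208325) of the smoothed profile and are not 55 separate readings. Macc1, a gene linked to metastasis of colon cancer, was the lowest protein-coding gene at -1.34. Esyt2, which encodes a tether between membranes, was the highest at 0.39, and Tmem196 nearest to the end had 0.34.

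The other 9 windows were mixed. On chromosome 2 (177080585 to 181995054) 71.8% of positions lay above 0, and the median was 1.21 against 0.0014 in the rest. A late run of 1.10 Mb with the cadherin gene Cdh26 at -0.87 was followed by an early run of 2.645 Mb that reached the end. It held Lsm14b at 1.99, the helicase gene Rtel1, which acts at telomeres, at 1.65, and the RNA polymerase III subunit gene Polr3k, nearest to the end, at 1.23. The placeholder-named Gm40035 lay nearer still and had 0.99. Chromosome 4 (151185313 to 156182102) had 79.1% above 0 and a median of 0.96, against -0.32 in the rest, and 82 of 84 genes were early. Ints11, a subunit gene of the Integrator complex, was the highest at 1.925, Ajap1, a junction protein gene, the lowest at -0.82, and Agrn, the agrin gene of the neuromuscular synapse, nearest to the end at 1.78. Hes5, a Notch target gene of neural progenitors, had 1.64.

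Chromosomes 6, 8 and 10 had 62.2%, 65.8% and 56.9% of positions above 0. On chromosome 6 the median was 0.52 against -0.53 in the rest, and 6 runs of at least 300 kb held Sinhcaf, a gene of a histone deacetylase complex, at 1.60, Ccdc91 at -1.27 and, nearest to the end, the motor adaptor gene Bicd1 at 1.41. On chromosome 8 the median was 0.28 against -0.48 in the rest. Fam89a had 1.56, the neuropilin gene Nrp1, a receptor of axon and vessel guidance, -0.86, and Ccdc7b at the end -0.45. On chromosome 10 the median was 0.70 against -0.36 in the rest. This window was the richest in genes, with 162, and held Stac3, a muscle excitation gene, at 1.92 in an early run of 2.44 Mb. A late run of 0.822 Mb with many odorant receptor genes came after it, and Olfr792 was the lowest at -1.63. At the end Vmn2r87, a pheromone receptor gene, had 0.46.

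Chromosomes 16, 14, 1 and 19 had 53.3%, 49.3%, 45.7% and 41.3% of positions above 0. On chromosome 16 the median was 0.14 against -0.79 in the rest, and 3 early and 3 late runs alternated. Vps26c, an endosome sorting gene, had 1.85, the potassium channel gene Kcnj15 -1.475, and Zbtb21, nearest to the end, 0.74. On chromosome 14 the median was -0.021 against -0.66 in the rest. An early run of 2.12 Mb held the zinc finger genes of brain patterning Zic5 at 1.57 and Zic2 at 1.48, and Fgf14, a gene of 703 kb next to the end, had -1.02. On chromosome 1 the median was -0.17 against -0.62. The angiogenesis gene Vash2 had 1.63, the semaphorin receptor gene Plxna2 -0.89, and the complement receptor gene Cr2, nearest to the end, -0.49. On chromosome 19 the median of -0.15 was below the 0.26 of the rest. The translation factor gene Eif3a had 1.39, Rab11fip2, a gene of recycling endosomes, -0.98, and the homeobox gene Emx2 of the cerebral cortex -0.21, while Csf2ra, a cytokine receptor subunit gene nearest to the end, had 0.91.

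**Figure D2:**
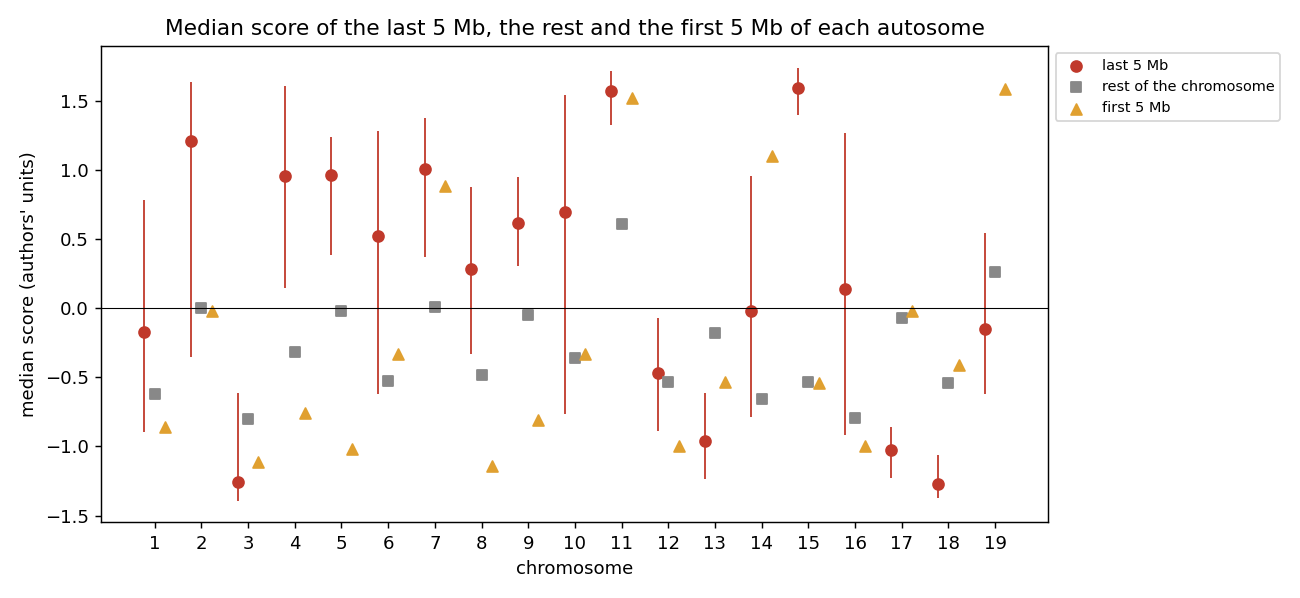
The median score (authors' units) of the last 5 Mb (red circles, with bars from the lower to the upper quartile of positions), of the rest of the chromosome (grey squares) and of the first 5 Mb (yellow triangles) is plotted for each autosome. Chromosomes 3, 13, 17, 18 and 19 are the 5 whose last 5 Mb lie below the rest, and chromosome 15 has the widest difference, 2.12.

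Runs of a single sign inside the windows numbered 33 early and 30 late at a minimum length of 300 kb. A gap of more than 300 kb also ended a run, which split an early stretch of chromosome 2 at its gap of 314.8 kb. The early runs had a median of 1.12 Mb and the late ones 0.983 Mb, and they summed to 47.99 and 40.4 Mb. The sign changed 86 times over all windows, at least once in every window except that of chromosome 11. Runs are cut at the inner border of a window, so these lengths are lower limits for the runs that cross it.

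At the last position with a score, that score was above 0 on 19 of 19 autosomes. It was below 0 at the first listed position, the centromere side, on 17 of 19. The contrast was weaker over longer stretches: the median of the first 300 kb was above 0 on 8 autosomes, and that of the last 300 kb on 15. The last scores spanned 0.017 on chromosome 9 to 1.78 on chromosome 4, with a median of 0.63, and the first scores -1.45 on chromosome 3 to 0.88 on chromosome 7, with a median of -0.51. Both sets overlapped, since chromosomes 17 and 7 had positive first scores. The share of positions above 0 over all autosomes was 43.8%, as given above. This comparison was made after the profiles had been seen.

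The 8 windows with a median below 0 lay on chromosomes 1, 3, 12, 13, 14, 17, 18 and 19. Their last scores had a median of 0.75, and their window medians one of -0.718, and since all last scores were above 0 this order was given. On chromosome 18 the score was 0.83 at the last position and -0.97 at 300 kb inward of it. On chromosome 17 it was 1.14 at the last position and -0.37 at the same distance, and on chromosome 12 it was 0.70 and -1.25. Chromosomes 1, 3, 13 and 14 were also below 0 at 300 kb inward, but chromosome 19 was not, with 0.98 at the last position and 1.01 at that distance. In 7 of the 11 windows with a median above 0 the last score lay below the median. On chromosome 11 the last score was 0.082 against a window median of 1.57, and on chromosome 15 it was 0.12 against 1.59. The last scores spanned 0.017 to 1.78, and the window medians -1.27 to 1.59.

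Counted in 100 kb steps, the median over autosomes was 0.64 in the last 100 kb, 0.37 in the next and 0.083 in the third, and -0.80 between 1000 and 1100 kb. Of 19 autosomes 17 had a median above 0 in the last 100 kb, all but chromosomes 8 and 14, and 9 were above 0 at 300 kb. The early run that reached the end was under 300 kb long on 10 autosomes, less than the smoothing width. It was a single position on chromosome 8 and 2 positions on chromosome 14. Fewer positions were listed near the end, 251 in the last 100 kb of all autosomes against 312 between 1000 and 1100 kb, and 180 in the first 100 kb. How the smoothing treated positions with neighbours on a single side is unstated, and its part in the end values was not tested. All 4 positions of the table that lacked a score were in distal windows, within 11.6 kb of the highest listed position.

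**Figure D3:**
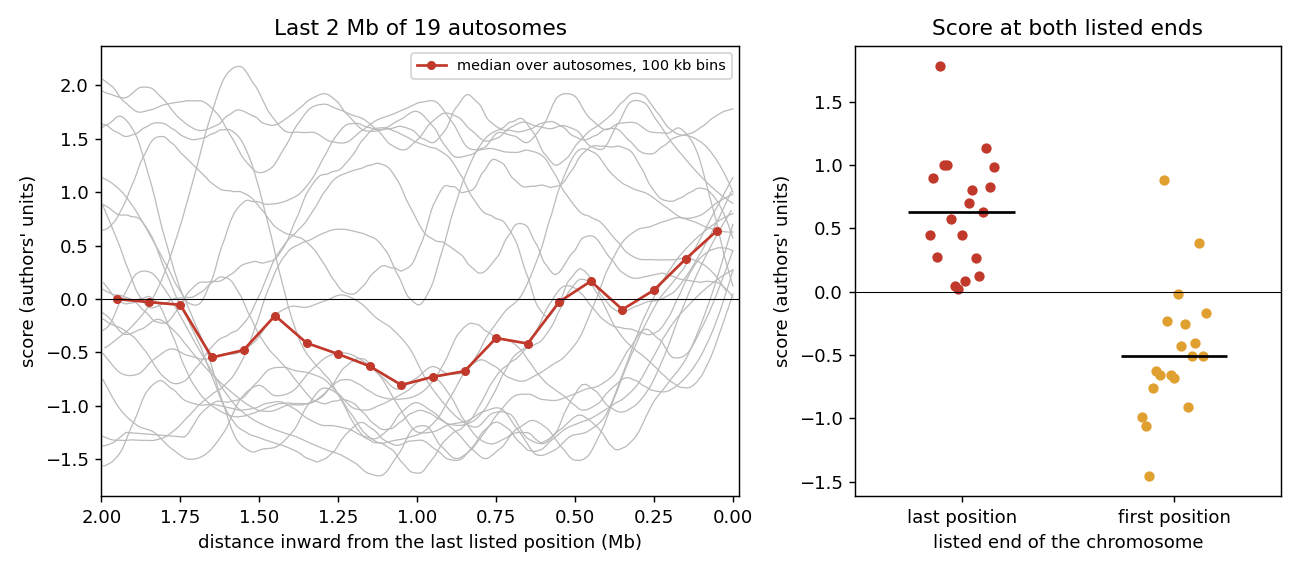
Left, the score (authors' units) of each autosome (grey lines) over the last 2 Mb and the median over autosomes in 100 kb bins (red), against distance inward from the last listed position in Mb. Right, the score at the last and at the first listed position of each autosome (points) with the median (line); all 19 last scores lie above 0 and 17 of 19 first scores below it.

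Farther inward the level did not change evenly with distance. The median over autosomes was -0.29 in the last 1 Mb, -0.25 in the next, 0.23 in both following bins and 0.63 between 4 and 5 Mb. Beyond the window it was 0.66 between 7 and 8 Mb, -0.88 between 11 and 12 Mb and 1.295 between 14 and 15 Mb. Protein-coding genes numbered 12.8, 12.9, 10.8, 9.32 and 11.6 per Mb in the 5 bins of the window, 5.26 between 11 and 12 Mb and 13.9 between 14 and 15 Mb. The value of the last bin changed sign with the bin width and was 0.20 in the last 500 kb.

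Against the first 5 Mb with listed positions, the centromere side of the same autosome, the distal median was higher on 13 of 19 chromosomes and lower on 6, with a median difference, distal minus first, of 0.69. With 2 Mb in place of 5 Mb it was higher on 9 of 19. Of all positions 56.2% lay above 0 in the last 5 Mb and 39.2% in the first 5 Mb, and the medians over positions were 0.25 and -0.39. Chromosome 15 had 1.59 at the distal and -0.54 at the centromere side, and chromosome 5 had 0.96 and -1.02. Chromosome 19 went the other way, with -0.15 and 1.58, as did chromosome 14 with -0.021 and 1.10. On chromosome 11 both ends were early, at 1.57 and 1.52.

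The distal windows were richer in protein-coding genes than the rest, with 1092 genes or 11.5 per Mb against 19425 genes or 8.43 per Mb. All 1092 had a score, taken at the position nearest to the gene's midpoint, and 905 of them (82.9%) lay above 0, against 14181 of 19200 (73.9%) elsewhere. The share over all scored autosomal protein-coding genes was 74.3%. The median gene score was 1.35 (quartiles 0.44 and 1.605) in the windows and 1.03 (quartiles -0.066 and 1.53) elsewhere. In the first 5 Mb 621 of 823 genes (75.5%) lay above 0. A further 37 protein-coding genes had their midpoint beyond the last listed position, 17 of them on chromosome 13, and are not members.

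Gene number and score went together from window to window. In the 9 windows with more genes per Mb than the rest of their chromosome, the distal median was above that of the rest in 9, and in the 10 windows with fewer it was above in 5. The extremes were chromosome 10 with 32.4 genes per Mb against 6.85 in its rest, and chromosome 17 with 0.6 against 12. Windows of 1 Mb were also compared within classes of like gene number. None of 6 distal windows without a gene had a mean above 0, against 1 of 276 others. With 1 to 4 genes it was 1 of 28 against 77 of 768, with 5 to 9 genes 13 of 21 against 283 of 548, with 10 to 19 genes 21 of 22 against 359 of 440, and with 20 or more 16 of 17 against 217 of 255. Over all 1 Mb windows the share was 41.5%. The distal medians were -1.15, -0.70, 0.43, 0.69 and 1.23 in these classes and the others' -1.26, -0.94, 0.028, 0.79 and 1.37, so the distal windows were higher in 3 classes and lower in the classes with 10 or more genes. With windows of 500 kb they were higher in all 5. The part of gene number in the score was not tested beyond these counts.

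**Figure D4:**
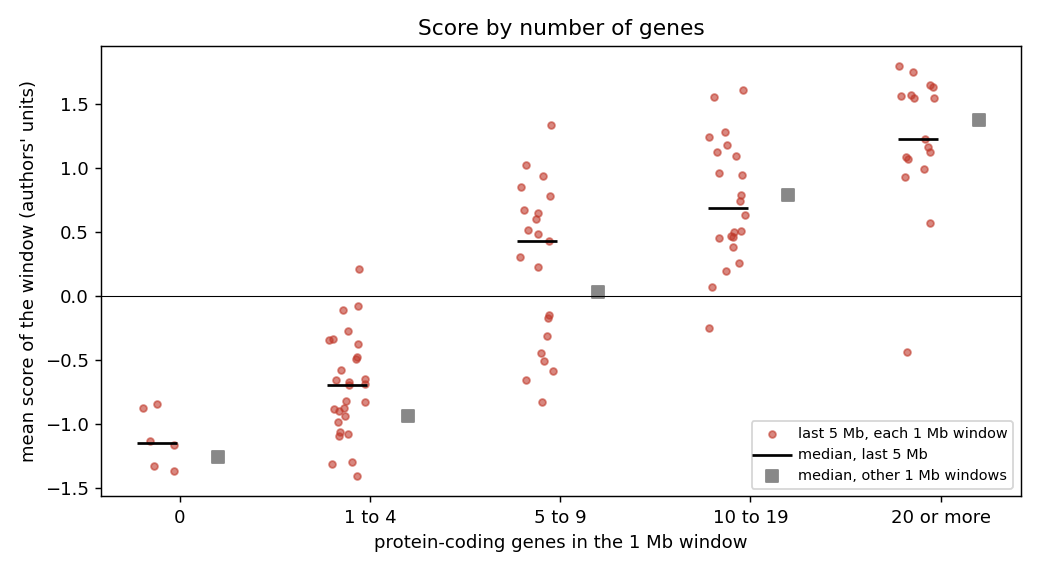
The mean score (authors' units) of each 1 Mb window in the last 5 Mb (red points, with the median as a black bar) is plotted by the number of protein-coding genes in it, beside the median of the other autosomal 1 Mb windows (grey squares). Both medians rise with the number of genes, the distal ones from -1.15 to 1.23.

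Odorant receptors were the largest of the families counted, with 74 genes on chromosomes 10 and 7, of which 56 were late. Their median was -0.53, against -0.84 for 1029 others on autosomes. On chromosome 10 the 58 genes had a median of -0.72, from Olfr792 at -1.63 to Olfr9 at 1.49, and on chromosome 7 the 16 had -0.0060, 8 of them above 0. The 5 vomeronasal receptor genes, from Vmn2r84 at 0.13 to Vmn2r87 at 0.46, were all early, against 45 of 284 elsewhere. On chromosome 10, 4 of them lay together (130385800 to 130497379) and cannot be read apart at this smoothing. The other, Vmn2r18 on chromosome 5, had 0.157. All 5 lay within 0.16 Mb of a last listed position. Of 31 keratin and keratin-associated genes 17 were early, with a median of 0.088, against 21 of 78 with a median of -0.94 elsewhere.

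Other families were counted by the stem of their names, beside the share of 74.3% over all genes. All 7 genes named Rpl or Rps with a digit were early, from Rpl14 at 0.74 to Rps21 at 1.85, against 81 of 84 elsewhere. Most encode ribosomal proteins, but Rps6kc1 encodes a kinase-like protein, and the ribosomal protein genes Rplp2 at 1.51 and Rpsa at 1.32 fall outside that rule; these 3 were looked up after the values were seen. Of 23 solute carrier genes 21 were early, against 270 of 339 elsewhere, with medians of 1.32 and 1.24, and ran from Slc18a2, the vesicular monoamine transporter gene, at -0.15 to Slc38a10 at 1.98. Of 15 Zfp zinc finger genes 14 were early, against 328 of 366 elsewhere, from Zfp386 at -0.80 to Zfp941 at 1.77. All 9 Tmem genes, named only for a membrane segment, were early, against 191 of 220 elsewhere, with Tmem80 the highest at 1.83. All 3 cytochrome P450 genes were early, from the bile acid enzyme gene Cyp8b1 at 0.70 to the ethanol-oxidizing enzyme gene Cyp2e1 at 1.57, against 66 of 96 elsewhere. Of Ccdc genes, named for a coiled coil, 7 of 11 were early, against 104 of 122 elsewhere, with Ccdc65 the highest at 1.78. Of Fam genes 5 of 8 were early, against 128 of 156 elsewhere, from Fam204a at -0.84 to Fam186b at 2.11. None of the Ugt and Defb genes, 22 and 42 of which had a score elsewhere, lay in a distal window. The stem Hist matched no gene on any autosome of the annotation.

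Of all 20554 autosomal protein-coding genes 1092 were distal. Among the lists for stem cell and lineage functions there was 1 of 24 autosomal pluripotency genes (Fgf4), 2 of 47 replication and telomere genes (Rtel1 and Rfc3), 2 of 24 neural genes (Hes5 and Emx2), 1 of 18 housekeeping genes (Tuba1b) and 0 of 21 mesoderm and endoderm genes. All but Emx2 lay above 0, beside 74.3% of all scored autosomal protein-coding genes. Elsewhere 23 of 23 pluripotency, 41 of 45 replication and telomere and 17 of 17 housekeeping genes lay above 0. Of neural genes elsewhere 16 of 22 did, and of mesoderm and endoderm genes 14 of 21.

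Promoter composition followed the score inside the distal windows as it did outside. A promoter of 300 bases was found for 889 of the 1092 genes, 1 per gene. CG dinucleotides had a median of 19 in 735 promoters of early distal genes and 6 in 154 of late ones, against 17 and 3 in early and late genes elsewhere. The motif searched was CG, which reads the same on both strands. At least 10 of them stood in 69.25% of early and 41.6% of late distal promoters, against 68.9% and 30.8% elsewhere, and in 59.2% of all 16226 autosomal promoters. At least 1 stood in 95.4% of distal promoters and 95.1% of the others. The share of C and G had medians of 60.3% and 49.8% in early and late distal promoters, and 59.0% and 46.7% elsewhere. Early and late distal promoters overlapped, with quartiles of 6.5 to 29 and 1 to 16 CG dinucleotides. Of the 187 late distal genes, with or without a promoter, 56 were odorant receptor genes of chromosomes 10 and 7. Those with a promoter had 0 to 3 CG dinucleotides each. How far this family made the difference between early and late distal promoters was not tested.

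**Figure D5:**
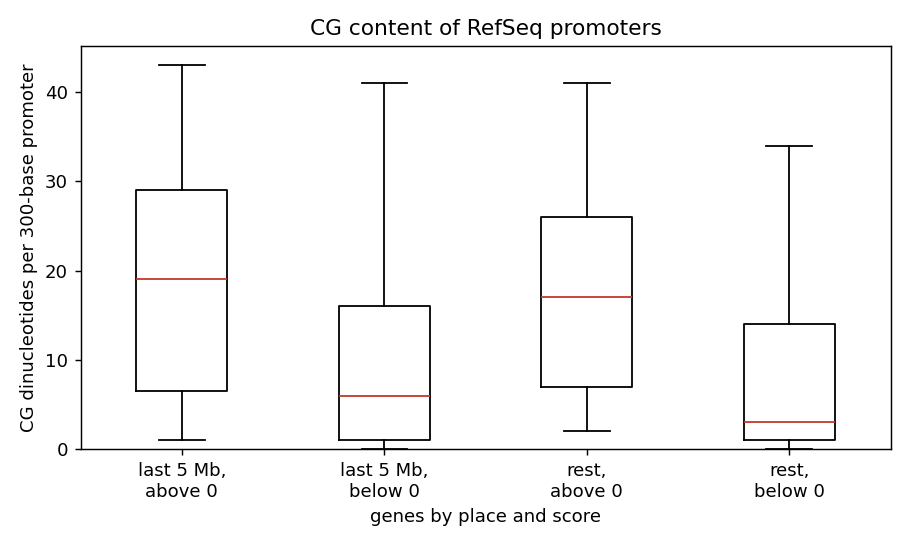
CG dinucleotides per 300-base RefSeq promoter are shown for protein-coding genes of the last 5 Mb and of the rest of the autosomes, split by a score above or below 0. Boxes run between the quartiles, the line is the median, and whiskers reach the 5th and 95th percentiles; the medians are 19, 6, 17 and 3 from left to right.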

How the data were processed

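Both BrdU libraries were made with Ion Plus kits, per the labels' protocols. Bowtie2 and mm10 are named as aligner and build in the notes on processing, per the labels. The authors' values are 1 score per position, early against late, smoothed over 300 kb per the name of the authors' table. Counting, scaling, log base and zero point are unstated. Depth is unknown and no counting interval was made.

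The last 5 Mb were counted from the highest listed position, missing scores included in finding it, and 4 positions without a score were left out. Genes came from RefSeq's GRCm38.p6 table, which numbers the chromosomes as mm10 does. In it 367 rows of scaffolds, alternate sequences and unplaced genes were left out. Of 20554 autosomal protein-coding genes 20304 had a score, that of the closest position up to 100 kb from the midpoint (median 1.54 kb). Promoters and microRNAs were matched by gene ID or symbol, with the most upstream promoter of a gene. With 1 library per fraction no test was made and no p-value is given. Values were computed with Python 3.11.15, pandas 2.3.3 and numpy 2.4.6, and the functions were tested on simulated data.

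The windows, lists, families and alternatives were chosen with earlier results of these data known. Named genes were the highest, the lowest and the end-most protein-coding gene of each window (placeholder names passed over), the list members, and the highest and lowest member of each family with at least 8 distal genes or fixed by name. HoxC and odorant receptors came under this rule, and a few genes it names are not reported here. The imprinted, chemokine receptor, Fgf, immunoglobulin and miR-200 groups, the division of windows at 85% and 20%, the values at the last position and single neighbours such as Isl1, Emb, Srsf11, Neto1, Zic2, Gsx1, Pdx1 and Cdx2 were chosen after values were seen. Alternatives were another zero point, thinner positions, other window lengths, the end left out, means, positions near 0 left out, other places of a gene's value, other bins, and each chromosome left out.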

Additional observations from a re-analysis of the deposited data

How the results depend on the processing

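With 1 early and 1 late library nothing here has an error between experiments, smoothing ties neighbouring positions together, and the zero point sets what is called early. The share of distal positions above 0 (56.2%) was 63.1% after moving 0 to the median of all autosomes (-0.30), 55.1% with 1 position per 300 kb, 51.4% over the last 2 Mb, 55.1% without the last 300 kb and 54.9% with each autosome weighted equally. Leaving out each chromosome in turn gave 53.6 to 58.8%. With 0 at the median of all autosomes, as many autosomal positions lie above it as below it by definition. The distal median (0.25) was 0.55 with the other zero point, 0.038 over the last 2 Mb, 0.21 as a mean and 0.49 without positions within 0.25 of 0. Leaving out single chromosomes gave 0.15 to 0.34, the lowest values being 0.147 without chromosome 11 and 0.159 without chromosome 15. The median difference from the rest of the chromosome was 0.71 to 0.85 in the same way, and it was positive under every alternative run. The share of early distal genes (82.9%) was 88.3% with the other zero point, 78.7% over the last 2 Mb and 73.9% over all annotated genes. Gene density (11.5 per Mb) was 12.9 over the last 2 Mb, 10.3 over the last 10 Mb and 24.1 for all annotated genes. Gene shares and densities of the rest of the autosomes were not recomputed under these alternatives. The median of the last bin was -0.29 at 1 Mb and 0.20 at 500 kb, and the cause was not tested beyond the narrower bin. Distal windows had the higher median in 3 of 5 gene-number classes at 1 Mb and in 5 at 500 kb. The count of 19 positive last positions, chosen after the data were seen, was 19 with the other zero point, 17 for the median of the last 100 kb and 15 for that of the last 300 kb. A mean could not be used for the share above 0. No paired analysis was possible because the authors' table holds 1 score for both libraries.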
